A study of Mus musculus with 16 samples.

Results

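Melanoma tumours that received a single X-ray dose of 5 Gy followed by the compound QH-II-066 were compared with untreated tumours over all genes. The comparison used 8 of the 16 RNA sequencing libraries of the study, 4 in each group, chosen by the treatment named in the labels. All the tumours grew from B16F10-GP cells, a derivative of the pigmented mouse melanoma line B16F10, implanted in 25% Matrigel on the flanks of female C57BL/6 mice 6 to 8 weeks old. In the combined group, X-rays reached the right flank alone on the morning of day 10, and QH-II-066 at 10 mg/kg was injected intraperitoneally that evening and daily for 7 days. The control libraries are labelled untreated, although the protocol describes mice given vehicle. The other 8 libraries came from tumours given 5 Gy alone or QH-II-066 alone from day 10, 4 each. The labels do not say which flank's tumour was profiled or whether each library is a mouse of its own, so p-values measure the spread between these libraries, which may be technical.

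A flank melanoma of this kind holds pigmented tumour cells, fibroblasts that deposit collagen, blood vessels with their muscle coat, and immune cells. X-rays break DNA, which activates p53 and halts the cell cycle, and irradiated tissue is known for later inflammation and for matrix deposition by fibroblasts. GABA-A receptors, named in the study's title, are chloride channels opened by the transmitter GABA. In bulk RNA, fewer cells of a type and less RNA per cell cannot be told apart.

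The untreated libraries held 25017744 to 31680098 counted fragments. Combined libraries 1 to 4 held 40799942, 24930339, 32722849 and 6994198, so the fourth was by far the shallowest. Correlations of log2 CPM (counts scaled to a common library size) between libraries lay between 0.960 and 0.985 among the untreated and between 0.914 and 0.979 in the combined group. Pmel, which forms the fibrils of the pigment granule and marks the tumour cells, stood at 5009, 5362, 6135 and 5690.1 CPM in the combined libraries and at 4632, 5062, 4985 and 6119 CPM in the untreated ones. Transcripts of neighbouring tissue set libraries apart. The mean log2 CPM of 24 skin epithelium genes was -0.51, 4.86, 3.72 and 6.15 in combined libraries 1 to 4, against -2.65 to -2.30 in the untreated ones. That of skeletal muscle genes was -0.57 to 5.74 against -1.04 to 2.77. The slope of a library's log2 CPM, taken as a deviation from the mean of all libraries, on log2 transcript length also differed. This length slope was -0.248, 0.0214, -0.0177 and -0.109 in the combined libraries and 0.0817, 0.139, 0.228 and -0.178 in the untreated ones, of which the fourth stood apart. Where depth, skin transcripts or this slope moved with a result below, their part in it was not tested beyond the values given with a covariate or without those libraries.

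**Figure D1:**
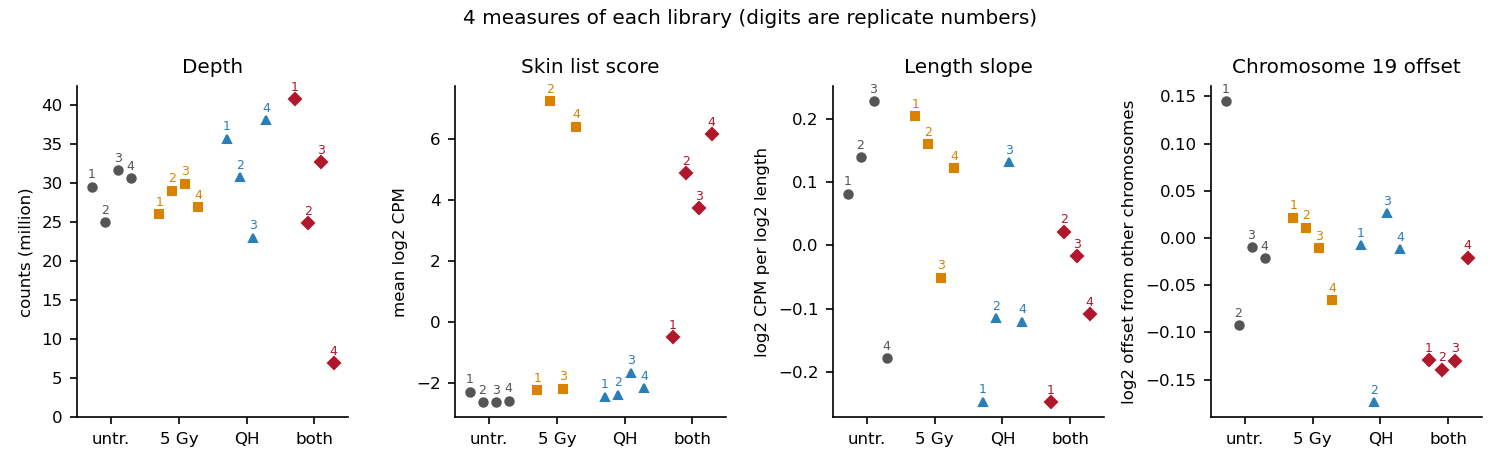
Total counts, mean log2 CPM of the skin epithelium list, slope of log2 CPM on log2 transcript length, and log2 offset of chromosome 19 genes from genes elsewhere, for all 16 libraries by group (untr., untreated; QH, QH-II-066; both, 5 Gy with QH-II-066), 1 point per library with its replicate number. Combined library 4 has 6994198 counts, and combined libraries 2, 3 and 4 have skin scores of 3.72 to 6.15.

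No gene passed the threshold in the combined tumours. Of 16101 genes tested with edgeR's quasi-likelihood test, 0 (0%) were higher and 0 (0%) lower at an adjusted p under 0.05, and the smallest adjusted p was 0.298. At an unadjusted p under 0.05 there were 1198 genes with higher levels (7.44%) and 1417 with lower levels (8.8%). These shares are the background for every count of list members at that threshold below. In 408 genes (2.53%) all 4 combined libraries lay above all 4 untreated ones, and in 272 genes (1.69%) they lay below. DESeq2 called 192 genes higher (1.19%) and 16 lower (0.0995%). By limma-voom, 0 higher (0%) and 0 lower (0%) were called. Without untreated library 4 the unadjusted counts were 2348 higher and 2796 lower, and without untreated library 3 they were 695 and 277. Without combined library 4 they were 639 and 589, and the lower count was 453 without combined library 1 and 2295 without combined library 2. Differences are therefore given as values in each library, then as log2 fold changes ± SE (n = 4 and 4), and no named gene had an edgeR adjusted p below 0.298.

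Of the 10 genes with higher levels, a mean log2 CPM of 1 or more and the smallest p, 3 encode proteins that act on collagen or matrix. Ctsk (chromosome 3, 95499256 to 95509362, build mm10) encodes cathepsin K, a protease that cleaves collagen, and stood at 30.2, 14.8, 14.1 and 18.2 CPM in combined libraries 1 to 4. In untreated libraries 1 to 4 it stood at 8.05, 6.46, 6.52 and 10.2 CPM. The groups did not overlap, combined library 1 was the highest, and the log2 fold change was 1.31 ± 0.27 (DESeq2 adjusted p = 0.000731). P3h4 (chromosome 11, 100408456 to 100414836), a partner of the enzymes that modify collagen, stood at 3.41, 2.43, 2.95 and 2.68 CPM against 0.936, 1.12, 0.831 and 1.48. All 4 combined values were above the untreated ones, with a log2 fold change of 1.40 ± 0.30. Mmp3 (chromosome 9, 7445822 to 7455972), the matrix protease stromelysin-1, stood at 46.8, 29.4, 14.4 and 37.8 CPM against 9.42, 4.58, 4.48 and 14.03. Its lowest combined library only just exceeded the highest untreated one (1.98 ± 0.45).

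Another 4 encode signalling proteins or a protease of the secretory route. Sfrp1 (chromosome 8, 23411502 to 23449632), a secreted Wnt modulator, stood at 6.44, 2.19, 2.18 and 12.5 CPM against 0.538 to 1.10 in the untreated libraries (2.76 ± 0.69). Gas1 (chromosome 13, 60174405 to 60177365), a membrane protein that binds Hedgehog ligands, stood at 5.22, 2.70, 1.85 and 5.81 CPM against 0.384 to 1.30 (2.24 ± 0.53). Pcsk5 (chromosome 19, 17432832 to 17837632), a convertase that cleaves secreted precursors, stood at 2.27, 1.33, 2.09 and 4.91 CPM against 0.352 to 0.902 (2.02 ± 0.46). In each of these 3 genes combined libraries 1 and 4 were the highest and the groups did not overlap. Gas6 (chromosome 8, 13465374 to 13494535), the ligand of the TAM receptor kinases, had 1 combined library within the untreated range, at 42.2, 11.4, 20.8 and 54.2 CPM against 5.53 to 14.9 (1.84 ± 0.46).

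The remaining 3 were Crispld2, Tagln and Rnase4, all with combined libraries wholly above the untreated ones. Crispld2 (chromosome 8, 119992438 to 120052793), a secreted protein, stood at 3.68, 4.08, 2.09 and 7.29 CPM against 0.769 to 1.44 (1.99 ± 0.51). Tagln (chromosome 9, 45929628 to 45936058), the actin-binding protein transgelin of smooth muscle, stood at 30.9, 18.1, 27.8 and 25.5 CPM against 10.7 to 14.4 (1.06 ± 0.25). Rnase4 (chromosome 14, 51091077 to 51106151), a secreted ribonuclease, overlaps the angiogenin gene, so its counts are uncertain. It stood at 29.6, 15.5, 15.8 and 31.7 CPM against 6.33 to 12.2 (1.38 ± 0.34). Some libraries given 5 Gy alone also held skin transcripts. Against the others of that group, they differed by 1.09 log2 units for Gas1, 1.08 for Crispld2, 1.03 for Sfrp1 and 0.99 for Gas6. Mmp3 differed by -1.02, Pcsk5 by -0.47 and the remaining named genes by 0.33 to 0.53. Over the settings tried, Sfrp1 ran from 1.70 to 3.51 and Crispld2 from 1.30 to 2.49.

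**Figure D2:**
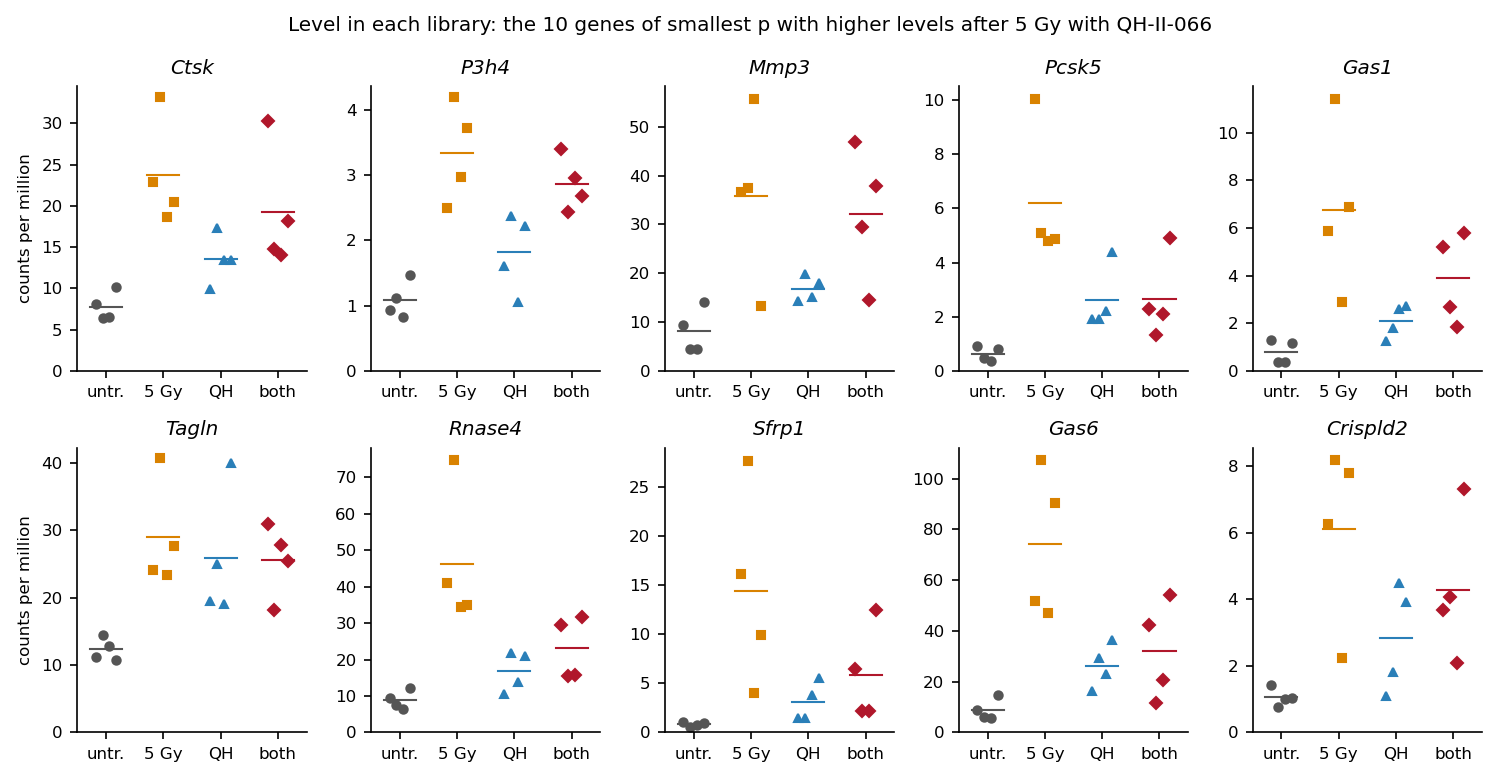
CPM (linear axes from 0) of the 10 genes with higher levels, a mean log2 CPM of 1 or more and the smallest p, in all 16 libraries by group (untr., untreated; QH, QH-II-066; both, 5 Gy with QH-II-066); points are libraries and short lines are means of 4. Each gene except Gas6 has 4 combined libraries above the 4 untreated ones, as for Ctsk, at 14.1 to 30.2 CPM against 6.46 to 10.2 CPM.

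The other treatments share the 4 untreated libraries, so their values are set side by side only. For the combination, 5 Gy alone and the drug alone, in this order, the log2 fold changes were 1.31, 1.61 and 0.79 for Ctsk, the collagen protease. They were 2.76, 4.11 and 1.88 for Sfrp1, 1.84, 3.06 and 1.56 for Gas6 and 1.98, 2.14 and 1.05 for Mmp3.

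The genes of fibroblasts and matrix (collagens, decorin and other products of connective tissue) had positive log2 fold changes, of which edgeR called 0 and DESeq2 3. All 16 tested members had log2 fold changes above 0, with a median of 1.10, where the median over all tested genes was -0.0028 and 49.7% were above 0. At unadjusted p under 0.05, 12 members were higher, and in 2 the groups did not overlap. The mean log2 CPM of the list ran from 5.08 to 6.44 in the combined libraries and from 4.52 to 5.31 in the untreated ones, so the groups overlapped. Col1a1, a chain of type I collagen, stood at 472, 162, 288 and 471 CPM in the combined libraries and at 149.8, 137, 142 and 179.6 CPM in the untreated ones (1.19 ± 0.37). Its partner chain Col1a2 stood at 708, 163, 268 and 492 CPM against 159, 131, 124 and 206 (1.40 ± 0.41). In both chains combined library 2 lay within the untreated range and the other 3 lay above it. Mmp2, a gelatinase of fibroblasts, had no overlap, at 41.8, 19.2, 21.4 and 36.02 CPM against 16.004, 13.5, 12.1 and 16.99 (1.01 ± 0.29). Dcn, the collagen-binding proteoglycan decorin, stood at 80.4, 22.9, 36.3 and 136 CPM against 10.2 to 37.004 (1.75 ± 0.55). The list median was 1.52 without the libraries with skin transcripts, which left combined library 1 alone in its group, assumed to vary like the other groups. Against the same controls it was 1.10 in the combined group, 1.98 after 5 Gy and 0.63 after QH-II-066.

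Most genes of contractile cells and of the TGF-beta response lay above 0, and few passed an unadjusted p of 0.05. Of 13 smooth muscle and pericyte genes 11 were above 0 (median 0.33), and 3 were higher at unadjusted p under 0.05. Acta2, smooth muscle actin, stood at 41.6, 32.1, 48.1 and 38.1 CPM against 12.2, 30.04, 22.8 and 18.01, with no overlap (0.95 ± 0.27). Of 16 genes of the TGF-beta response 12 were above 0 (median 0.27; 0.48 without untreated library 2 and 0.10 without combined library 4) and 4 were higher at unadjusted p under 0.05, namely Tagln, Acta2, Fst and Bmp1. Fst, the activin antagonist follistatin, stood at 0.919, 1.65, 1.22 and 5.36 CPM against 0.192 to 0.668 (2.41 ± 0.62; 1.63 without combined library 4). Bmp1, which processes procollagen, stood at 33.6, 20.2, 23.7 and 18.2 CPM against 14.8 to 19.7 (0.50 ± 0.21). Des, the intermediate filament of muscle, stood at 9.11, 27.9, 35.8 and 60.1 CPM against 4.74 to 9.62 (2.08 ± 0.96). Taking the skin score as a covariate gave -0.50. Within the combined group Des was highest in the libraries with skin transcripts. It rose in the order of the skeletal muscle score, at -0.57, 2.69, 4.64 and 5.74 in combined libraries 1 to 4. In library 4 of QH-II-066 alone, Des stood at 6.00 log2 CPM, the muscle score at 5.66 and the skin score at -2.18. All 21 tested skeletal muscle genes were above 0 (median 2.64). Which tissue the Des transcripts came from was not tested. Cnn1, a calponin of smooth muscle, stood at 0.0895 to 2.08 CPM against 0.106 to 0.231 (1.97 ± 1.12), and limma-voom gave -0.20.

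Skin transcripts separated the groups widely. All 24 genes of the skin epithelium list had higher levels in the combined group, 20 of them with no overlap, and DESeq2 called 22. Krt10, a keratin of the upper epidermis, stood at 2.24, 103, 57.03 and 359.9 CPM in combined libraries 1 to 4 and at 0 to 0.176 CPM in the untreated ones. Krt5, a keratin of the basal layer, stood at 1.08, 144, 74.2 and 341 CPM against 0.334, 0, 0 and 0, where 3 counts, the most that a count of 0 allows, are 0.0959 to 0.115 CPM (counting error only). Dmkn, an epidermal secreted protein, stood at 1.95, 87.3, 32.9 and 142 CPM against 0.0668 to 0.192. Combined library 1 was the lowest of its group for all 3, and above every untreated library. Lgals7, galectin-7 of stratified epithelia, and Sbsn, suprabasin, stood at 21.9 to 112 and 6.73 to 98.4 CPM against 6.45 to 8.37 and 1.76 to 2.87 CPM. Skin transcripts also marked 2 of the 4 libraries given 5 Gy alone. Of the genes that DESeq2 called higher, 146 (76.04%) were more than 1 log2 unit higher in those 2 libraries than in the other 2, against 7.96% of all tested genes. Among the genes with 4 libraries above 4 the share was 59.3%.

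Scores of mast cells and neutrophils separated the groups, and that of macrophages and monocytes did not. The score of a list, its mean log2 CPM, did not overlap between the groups for 3 of 45 lists, namely skin epithelium, mast cells and neutrophils. With the median of the members in place of the mean the count was 4, the fourth being mitosis, which was lower in the combined libraries. The mast cell score was 1.47, 1.41, 1.21 and 2.21 in the combined libraries and -0.50, -1.30, -1.19 and 0.99 in the untreated ones, and 4 of 6 tested members were higher at unadjusted p under 0.05. Cma1, the mast cell protease chymase, stood at 3.38, 1.999, 1.999 and 6.70 CPM against 0.368, 0.0769, 0.128 and 1.58, with no overlap (2.66 ± 0.83). Tpsb2, a tryptase, stood at 2.27, 1.18, 1.73 and 4.76 CPM against 0.0320 to 1.20 (2.38 ± 0.79). Cpa3, carboxypeptidase A3, stood at 0.946 to 3.72 CPM against 0.0385 to 1.13 (2.29 ± 0.90), and Mcpt4, another granule protease, at 1.72 to 12.5 CPM against 0 to 2.67 (2.58 ± 1.10). Untreated library 4 was the highest of its group in all 4. Kit, the growth factor receptor of mast cells and melanocytes, was at 0.021 ± 0.29. The list median was 2.33 in the combined group, 2.93 after 5 Gy and 2.25 after QH-II-066, against the same controls. In the combined group it was 0.996 with the skin score as a covariate and 3.80 without untreated library 4.

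The neutrophil score was 1.02, 2.12, 0.45 and 0.20 against -0.88, 0.075, -0.67 and -0.36, and 5 of the 8 tested members were higher at unadjusted p under 0.05. S100a8, a subunit of calprotectin, stood at 1.30, 33.8, 0.657 and 0.298 CPM in combined libraries 1 to 4 and at 0.0334 to 0.731 CPM in the untreated ones. Combined library 2 was far above the others: the log2 fold change was 5.05 ± 1.37 with it and 1.54 without. The other subunit, S100a9, stood at 1.22, 37.5, 1.46 and 2.83 CPM against 0.401 to 0.703 (4.23 ± 1.18; 1.63 without combined library 2). Il1r2, the decoy receptor for interleukin 1, was more even, at 3.19, 2.35, 2.24 and 5.21 CPM against 0.468 to 1.58 (1.70 ± 0.59), and so was the gelatinase Mmp9, at 5.60, 5.96, 3.49 and 5.51 CPM against 0.368 to 2.85 (1.59 ± 0.59). Neither overlapped. Keratinocytes can also make calprotectin. The inducible keratin Krt6a, named after its values were seen, was likewise highest in combined library 2, at 0, 162, 2.21 and 12.95 CPM. The skin score was highest in combined library 4 (6.15), where S100a8 was the lowest of its group and Il1r2 the highest. From the 5 Gy libraries without skin transcripts to those with them, S100a8 differed by 0.0038 log2 units and S100a9 by -0.40. Between the same libraries Il1r2 differed by 2.01 and Mmp9 by -1.20. With the skin score as a covariate S100a8 was at 4.68 and S100a9 at 4.30. The part of skin in these values was not tested beyond this.

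Of 18 macrophage and monocyte genes 16 were above 0 (median 0.58) and 5 were higher at unadjusted p under 0.05. The score ran from 4.78 to 5.98 against 4.28 to 5.48 and overlapped. Cd163, the haemoglobin scavenger receptor, stood at 4.06, 2.59, 4.72 and 15.6 CPM against 2.21, 1.15, 1.31 and 2.11, with no overlap (1.94 ± 0.55; 1.16 without combined library 4). Mrc1, the mannose receptor, stood at 49.2, 25.7, 26.1 and 71.7 CPM against 19.9 to 25.8 (0.91 ± 0.33). Trem2, a lipid-sensing receptor, stood at 52.9, 15.8, 20.9 and 16.1 CPM against 6.08 to 17.6 (1.19 ± 0.41; 0.60 without combined library 1). These 2 overlapped with the untreated group; Trem2 was highest in combined library 1, and Mrc1 in combined libraries 1 and 4. Lyz2, lysozyme of myeloid cells, stood at 492, 310.1, 344 and 396 CPM against 171.6, 279.7, 153 and 310.3 (0.75 ± 0.27).

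Of 22 chemokines, which attract leukocytes, 20 were above 0 (median 0.55) and 4 were higher at unadjusted p under 0.05. Cxcl12, made by fibroblasts, stood at 27.7, 10.2, 19.1 and 34.7 CPM against 10.6, 10.6, 8.79 and 21.1 (0.83 ± 0.33). Ccl8, which draws monocytes, stood at 276, 68.8, 85.9 and 192 CPM against 52.9, 51.999, 33.6 and 156 (1.08 ± 0.47). Cxcl16, which binds CXCR6, and Cxcl13, which draws B cells, were at 0.78 ± 0.35 and 2.11 ± 0.93. In the first 3, combined libraries 1 and 4 and untreated library 4 were the highest of their groups, and these have the lowest length slopes of the 8 libraries. With that slope as a covariate the list median was 0.049.

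Genes of cytotoxic lymphocytes showed no common direction. Of 13 CD8 and cytotoxic genes 6 were above 0 and 7 below, with 0 at unadjusted p under 0.05 by edgeR and 0 called by DESeq2. Cd8a, a chain of the CD8 co-receptor, stood at 9.22, 4.19, 4.74 and 7.74 CPM against 4.71, 7.88, 5.12 and 9.39 (-0.071 ± 0.38), and its sign changed in 6 other settings. Gzmb, the protease granzyme B, stood at 8.71, 3.96, 6.42 and 11.6 CPM against 6.35, 19.7, 10.2 and 13.5 (-0.72 ± 0.45). Gzma, the related granzyme A, was at 0.85 ± 0.53, the granule protein Nkg7 at 0.56 ± 0.45 and the transcription factor Eomes at 0.50 ± 0.41. Ifng, the cytokine interferon gamma, was at 0.61 ± 0.54. The groups overlapped in all 6.

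Interferon-induced genes lay near the background. The median was -0.061 over 27 type I interferon genes and -0.11 over 24 interferon gamma genes, the latter 0.14 without untreated library 4. Ddx58, the RNA sensor RIG-I, was the 1 gene of these lists at unadjusted p under 0.05, at 47.1, 40.2, 53.4 and 42.9 CPM against 59.9, 74.1, 59.03 and 67.2 (-0.50 ± 0.21). Ifit2, an inhibitor of viral translation, stood at 60.7 to 67.95 CPM against 74.1 to 86.003 (-0.32 ± 0.23). Ciita, the activator of MHC class II genes, stood at 11.5 to 19.4 CPM against 21.01 to 24.5 (-0.66 ± 0.43), and Nlrc5, its class I counterpart, at 72.9 to 87.3 CPM against 89.7 to 114 (-0.31 ± 0.21). These 4, picked for their small p, were lower without overlap. They were the only such genes, 2 of 27 in the first list and 2 of 24 in the second. Over all tested genes the share was 1.69%. Bst2 (tetherin), Ifi27l2a, Tgtp1 and Ido1 overlapped, at 0.56 ± 0.44, 0.83 ± 0.51, -0.51 ± 0.32 and -1.85 ± 0.94.

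Among the genes with lower levels and a mean log2 CPM of 1 or more, Sufu and Gbe1 had the smallest p. Over all tested genes, 128 genes (0.795%) were lower at unadjusted p under 0.01. Sufu (chromosome 19, 46396896 to 46488804), the protein that restrains the GLI factors of the Hedgehog pathway, stood at 17.9, 18.7, 19.8 and 14.9 CPM in combined libraries 1 to 4 and at 35.3, 25.7, 32.5 and 23.9 CPM in the untreated ones. Its groups did not overlap (-0.71 ± 0.15; DESeq2 adjusted p = 0.00258), and its value ran from -0.80 to -0.55 over the settings tried. Gbe1 (chromosome 16, 70313949 to 70569716), the branching enzyme of glycogen synthesis, stood at 46.4, 62.4, 57.7 and 47.2 CPM against 89.8, 92.6, 121 and 64.4, again with no overlap (-0.78 ± 0.17; DESeq2 adjusted p = 0.00344). It ran from -0.98 to -0.56 over the settings. For the combination, 5 Gy alone and the drug alone, against shared controls, the values were -0.71, -0.16 and -0.37 for Sufu and -0.78, -0.049 and -0.27 for Gbe1.

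Genes of glycogen metabolism, a list that includes Gbe1, were mostly below 0. Of 16 tested members, Gbe1 counted, 12 were below 0 (median -0.23), and 5 were lower and 1 higher at unadjusted p under 0.05. Pgm1, a phosphoglucomutase, stood at 231, 247, 259 and 210.0 CPM against 297, 318, 349.7 and 249 (-0.36 ± 0.14). Phka1, a subunit of phosphorylase kinase, stood at 14.01, 18.3, 16.8 and 16.8 CPM against 23.3, 19.5, 24.1 and 16.7 (-0.34 ± 0.14). Both overlapped with untreated library 4 alone. Stbd1, which tethers glycogen to membranes, went the other way, at 2.06, 1.02, 1.28 and 3.57 CPM against 0.528 to 0.99998 (1.22 ± 0.42). Against the shared controls the list median was -0.23 in the combined group, 0.0027 after 5 Gy and -0.063 after QH-II-066. It was -0.058 in the combined group with the length slope as a covariate.

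Hedgehog genes, a list that includes Sufu, lay on both sides of 0 (median -0.066). Of 12 tested members, Sufu counted, 4 were lower and 2 higher at unadjusted p under 0.05. The median was -0.45 with the skin score as a covariate and -0.22 over the 10 members tested in the compared groups alone. It was -0.25 without the libraries with skin transcripts, which left combined library 1 alone in its group. Gli3, a GLI factor that often acts as a repressor, stood at 29.2, 41.3, 31.7 and 32.3 CPM against 45.7, 49.5, 57.2 and 38.1 (-0.50 ± 0.14). Boc, a co-receptor, stood at 11.98, 19.05, 19.1 and 20.99 CPM against 20.7 to 27.5 (-0.43 ± 0.17), and the cilium kinesin Kif7 was at -0.38 ± 0.18. The higher members were the co-receptor Gas1, given above, and Gli2, an activator, at 0.189, 0.431, 0.328 and 2.83 CPM against 0.0320 to 0.231 (2.33 ± 1.04).

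Another 5 named genes with lower levels have unrelated functions. Grk5 (chromosome 19, 60889749 to 61092553), a kinase of G protein-coupled receptors, stood at 11.8, 15.3, 13.4 and 11.5 CPM against 27.2, 20.3, 21.1 and 15.9 (-0.70 ± 0.17), and at -0.31 with the libraries thinned to the shallowest. Kdm4b (chromosome 17, 56326062 to 56402870), a histone demethylase, stood at 28.9, 39.98, 42.9 and 29.9 CPM against 56.8, 54.8, 65.3 and 40.2 (-0.61 ± 0.15). Nhlrc2 (chromosome 19, 56548261 to 56598846) stood at 14.1 to 18.8 CPM against 17.9 to 32.6 (-0.62 ± 0.16; -0.32 when thinned). Of these only Grk5 had no overlap. Atp7b (chromosome 8, 21992785 to 22060305), a copper transporter, stood at 1.41, 1.999, 2.95 and 2.68 CPM against 5.55, 4.65, 9.08 and 2.60 (-1.29 ± 0.35). Pdcd11 (chromosome 19, 47090766 to 47131143), a factor of ribosomal RNA processing, stood at 47.9, 69.96, 68.3 and 50.8 CPM against 103, 83.4, 102 and 69.7 (-0.59 ± 0.17). In all 10 named genes of smallest p with lower levels, untreated library 4, with its low length slope, was the lowest of its group. With the slope as a covariate Sufu was at -0.56, Gbe1 at -0.56 and Kdm4b at -0.43.

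**Figure D3:**
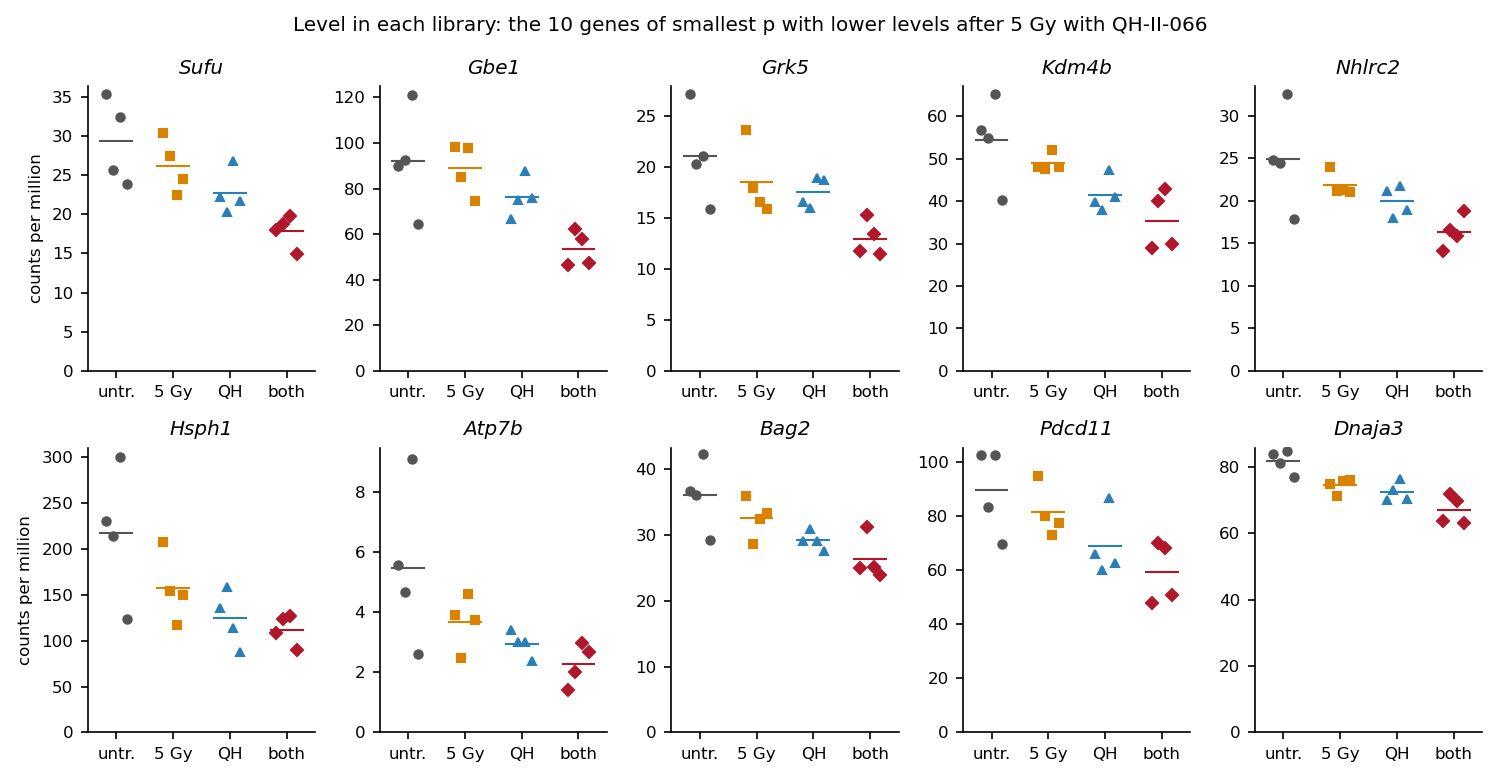
CPM (linear axes from 0) of the 10 genes with lower levels, a mean log2 CPM of 1 or more and the smallest p, in all 16 libraries by group (untr., untreated; QH, QH-II-066; both, 5 Gy with QH-II-066); points are libraries and short lines are means of 4. Gbe1 is at 46.4 to 62.4 CPM in the combined libraries against 64.4 to 121 CPM, and Sufu, Gbe1, Grk5 and Dnaja3 show no overlap with the untreated group.

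Chaperone genes diverged. Hsph1 (chromosome 5, 149614287 to 149636376), which recharges HSP70 chaperones, stood at 109, 123, 127 and 89.6 CPM against 231, 214, 299.9 and 123 (-0.95 ± 0.25). Bag2 (chromosome 1, 33745484 to 33757795), a co-chaperone of HSP70, stood at 25.04, 31.2, 25.1 and 23.97 CPM against 36.7, 36.2, 42.4 and 29.3 (-0.45 ± 0.12). Both overlapped with untreated library 4. Dnaja3 (chromosome 16, 4639989 to 4707695), a mitochondrial co-chaperone, stood at 63.7, 71.8, 69.7 and 63.1 CPM against 83.8, 81.2, 84.7 and 76.9 with no overlap (-0.28 ± 0.079). Dnaja1, a cytosolic co-chaperone, stood at 412, 330.0, 305 and 277 CPM against 394 to 485 (-0.39 ± 0.15; -0.065 without the libraries with skin transcripts). Hspb1, a small heat shock protein, was higher without overlap, at 5.11, 8.35, 10.3 and 23.7 CPM against 1.70 to 3.38 (2.17 ± 0.69), and at 0.24 with the skin score as a covariate. Hspb1 was also 2.87 log2 units higher in the 5 Gy libraries with skin transcripts than in those without. Of 13 listed heat shock genes 2 were lower and 1 higher at unadjusted p under 0.05 (median -0.16). Over all tested genes 8.8% were lower and 7.44% higher. Hsf1, the main activator of heat shock genes, was at -0.27 ± 0.17.

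The heat shock element bound by Hsf1 is built of GAA units in alternating orientation. The 250 bases before the start sites of Hsph1, Dnaja1 and Hspb1 (RefSeq, build GRCm38.p6) are shown because Hsph1 and Dnaja1 lay below 0 and Hspb1 above. A link between these sequences and the levels was not tested, and Hspb1 moved with the skin score, as given above. The promoter table holds 2 windows for Hsph1, 3 for Dnaja1 and 1 for Hspb1, and the one nearest to the start of the gene in the deposited annotation was taken. The Hsph1 window lies before the RefSeq start but overlaps the start of the gene as deposited, at the coordinates given above. Its marked match lies within that overlap. Capitals mark each match to GAANNTTC or TTCNNGAA, a pair of such units that reads as the same pattern on both strands. The windows lie at chr5:149636337-149636586 on the minus strand, at chr4:40722218-40722467 on the plus strand and at chr5:135887669-135887918 on the plus strand, and are written 5′ to 3′ on the gene's strand.
Hsph1: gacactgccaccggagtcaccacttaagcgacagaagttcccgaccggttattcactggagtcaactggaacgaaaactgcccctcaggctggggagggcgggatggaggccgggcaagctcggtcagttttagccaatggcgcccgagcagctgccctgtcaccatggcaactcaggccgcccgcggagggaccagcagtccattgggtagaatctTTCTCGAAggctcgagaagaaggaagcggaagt
Dnaja1: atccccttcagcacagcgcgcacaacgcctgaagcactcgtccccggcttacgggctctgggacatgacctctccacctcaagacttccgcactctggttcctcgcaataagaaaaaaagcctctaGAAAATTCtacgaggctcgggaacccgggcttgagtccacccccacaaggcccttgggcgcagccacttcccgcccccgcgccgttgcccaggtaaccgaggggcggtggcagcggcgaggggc
Hspb1: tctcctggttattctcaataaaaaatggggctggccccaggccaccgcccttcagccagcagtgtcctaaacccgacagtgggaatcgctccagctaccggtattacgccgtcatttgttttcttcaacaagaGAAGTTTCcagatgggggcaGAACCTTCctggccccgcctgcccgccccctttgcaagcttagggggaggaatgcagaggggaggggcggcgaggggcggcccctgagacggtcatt
Hsph1 and Dnaja1 each had 1 match, and none of their other windows had more; Hspb1 had 2. The pair occurred in 12.8% of 32851 promoter windows of this length, and in 8 of the 14 windows (57.1%) of the 9 listed heat shock genes with an entry.

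Genes of glucose and lipid metabolism had medians below 0. Of 23 genes of hypoxia and glycolysis 21 were below 0 (median -0.27), and 7 were lower and 1 higher at unadjusted p under 0.05. Hk1, a hexokinase that starts glycolysis, stood at 172.2, 225, 245 and 166 CPM against 305, 328, 346 and 223 (-0.57 ± 0.17), and its relative Hk2 at 208, 314, 323 and 250.1 CPM against 294 to 527 (-0.49 ± 0.18). Pgam1, phosphoglycerate mutase, and Gapdh were at -0.77 ± 0.24 and -0.53 ± 0.20, but have processed pseudogenes, so their counts are uncertain. The list median was 0.018 with the skin score as a covariate. Of 23 cholesterol synthesis genes 5 were lower at unadjusted p under 0.05 (median -0.19). Lss, lanosterol synthase, stood at 41.6, 80.1, 78.6 and 50.6 CPM against 80.7 to 117 with no overlap (-0.59 ± 0.21), Srebf2, the activator of the pathway, was at -0.48 ± 0.17, and the enzymes Hsd17b7 and Nsdhl were at -0.54 ± 0.20 and -0.54 ± 0.23.

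In the list of the unfolded protein and integrated stress responses, 4 of 24 were lower at unadjusted p under 0.05 (median -0.054). The median was -0.14 without combined library 2, -0.15 with the skin score and -0.20 with the chromosome 19 offset as a covariate, the last added after seeing the data. Hspa5, the main chaperone of the endoplasmic reticulum, stood at 943 to 1439 CPM against 1443 to 1692 (-0.33 ± 0.15). The disulfide isomerase Pdia4 stood at 328 to 473 CPM against 491 to 590.0 (-0.36 ± 0.13), and the transcription factor Xbp1 at 101 to 136 CPM against 144 to 185 (-0.32 ± 0.13). These 3 did not overlap, while the co-chaperone Dnajc3 did (-0.38 ± 0.15).

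Genes of cell division, replication and repair had medians below 0. Of 25 mitosis genes 23 were below 0 (median -0.28) and 8 were lower at unadjusted p under 0.05. Kif11, a spindle motor, stood at 77.5, 119, 104 and 74.6 CPM against 150.1, 119.9, 165 and 104 (-0.52 ± 0.18), and Top2a, topoisomerase II alpha, at 418, 566, 499 and 379.9 CPM against 601, 590.1, 751 and 505 (-0.39 ± 0.15). The kinetochore protein Cenpf and the spindle factor Tpx2 were at -0.47 ± 0.17 and -0.30 ± 0.12. Mki67, the proliferation marker, stood at 290.0, 303, 282 and 309.6 CPM against 330.2, 360.4, 429 and 278 (-0.24 ± 0.12), so that untreated library 4 lay below every combined library. Of 28 replication genes 6 were lower (median -0.16; -0.023 with the skin score as a covariate). Cdc6, which loads the replicative helicase, stood at 23.8 to 44.01 CPM against 44.5 to 56.9 with no overlap (-0.47 ± 0.17). The helicase subunit Mcm4, the clamp loader Rfc1 and the polymerase Pola1 were at -0.29 ± 0.11, -0.26 ± 0.11 and -0.52 ± 0.22.

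Of 29 DNA damage repair genes 24 were below 0 (median -0.33) and 7 were lower at unadjusted p under 0.05. Msh6, of mismatch repair, stood at 75.3, 94.3, 89.6 and 76.1 CPM against 111, 95.3, 118 and 97.1 with no overlap (-0.33 ± 0.11). Trp53bp1, Brca2 and Nbn, which act at double-strand breaks, were at -0.60 ± 0.22, -0.59 ± 0.24 and -0.35 ± 0.15. The repair score was 5.14, 5.46, 5.43 and 5.08 in the combined libraries and 5.55, 5.48, 5.72 and 5.35 in the untreated ones, lowest in the 3 libraries with the lowest length slopes. With the slope as a covariate the list median was -0.14.

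The p53 targets lay on both sides of 0. Of 32 members 17 were above 0 and 15 below (median 0.0089), with 3 higher and 2 lower at unadjusted p under 0.05. Taking the skin score as a covariate gave a list median of -0.16. Over all tested genes 7.44% were higher and 8.8% lower at the same unadjusted threshold. Cdkn1a, the cell cycle inhibitor p21, stood at 189.6, 186, 183 and 167 CPM against 188, 214, 179 and 196 (-0.10 ± 0.11), and Ccng1, cyclin G1, at 101, 179, 147 and 103 CPM against 117 to 159 (-0.11 ± 0.17). Perp, a desmosome protein that also stands in the skin list, stood at 1.70, 70.4, 29.5 and 168 CPM against 0.500 to 0.936 (6.51 ± 1.84). It was at -0.68 with the skin score, which includes Perp itself, as a covariate. Btg2, an inhibitor of proliferation, stood at 9.11, 8.19, 7.70 and 17.4 CPM against 4.35 to 7.88 (0.92 ± 0.32). The repair factor Xpc and the phosphatase Tigar were at -0.34 ± 0.14 and -0.23 ± 0.095. Of 26 apoptosis regulators 3 were higher and 1 lower at unadjusted p under 0.05 (median 0.045). These were Pmaip1, the p53 target NOXA (1.005 ± 0.42), Bok (0.65 ± 0.29), Bcl2a1b, which has near-identical copies (1.02 ± 0.45), and Casp8, the initiator caspase of death receptors (-0.59 ± 0.25).

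GABA-A receptor genes were barely detected. Of 19 subunit genes 3 had enough counts to be tested. Gabra3, the alpha3 subunit, stood at 1.65, 0.0784, 0.597 and 2.68 CPM in the combined libraries and at 0.301, 0.0385, 0.192 and 0.422 CPM in the untreated ones (2.28 ± 0.86). Its groups overlapped, and combined libraries 1 and 4 were the highest. Gabrd and Gabrb1 stood at 0.298 to 1.35 and 0.0597 to 0.270 CPM in the combined group (1.07 ± 0.52 and -0.43 ± 0.79), where 3 counts are 0.0811 to 0.447 CPM. Gabarap, which binds GABA-A receptors and belongs to the autophagy proteins, stood at 373, 273, 286 and 295 CPM against 269, 233, 222 and 355 (0.19 ± 0.18). Over all tested genes 7.44% were higher and 8.8% lower at unadjusted p under 0.05. Of 28 autophagy genes 1 was higher and 2 were lower at that threshold (median -0.030). These were Map1lc3a, of the autophagosome membrane (0.80 ± 0.35), Becn1, which starts the process (-0.33 ± 0.14), and the cargo receptor Nbr1 (-0.41 ± 0.18), while the mitophagy receptor Bnip3l was at -0.37 ± 0.18.

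Pigment genes of the tumour cells lay near 0, with a median of -0.051 over 17 genes and 2 lower at unadjusted p under 0.05. Tyr, the rate-limiting enzyme of melanin synthesis, was at -0.46 ± 0.21 and the lineage factor Sox10 at -0.28 ± 0.13. Gpnmb, Mlana and Pmel, proteins of the pigment granule, were at -0.20 ± 0.14, 0.37 ± 0.28 and 0.094 ± 0.13.

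Ribosomal protein genes, whose transcripts are short, moved with the length slope. Of 32 genes 31 were above 0 (median 0.46) and 5 were higher at unadjusted p under 0.05. Their score was 10.88, 10.17, 10.13 and 10.66 in the combined libraries and 9.97, 9.80, 9.66 and 10.57 in the untreated ones, highest in the 3 libraries with the lowest slopes. Rpl37a, Rplp2, Rplp1 and Rps15, which have many pseudogenes, were at 1.16 ± 0.45, 1.21 ± 0.50, 1.05 ± 0.44 and 0.80 ± 0.35. With the slope as a covariate the list median was -0.011. The slope was itself taken over expressed genes that include ribosomal protein genes. A change in these short transcripts and a length bias therefore cannot be told apart. Over all tested genes 7.44% were higher and 8.8% lower at unadjusted p under 0.05. Of 29 nuclear genes of oxidative phosphorylation 1 was higher and 1 lower, the complex I genes Ndufa2 (1.26 ± 0.46) and Ndufs1 (-0.27 ± 0.12). The list median was 0.24, and -0.055 with the slope as a covariate. Cox4i1, of complex IV, and Atp5b, of the ATP synthase, were at 0.71 ± 0.35 and -0.29 ± 0.15.

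**Figure D4:**
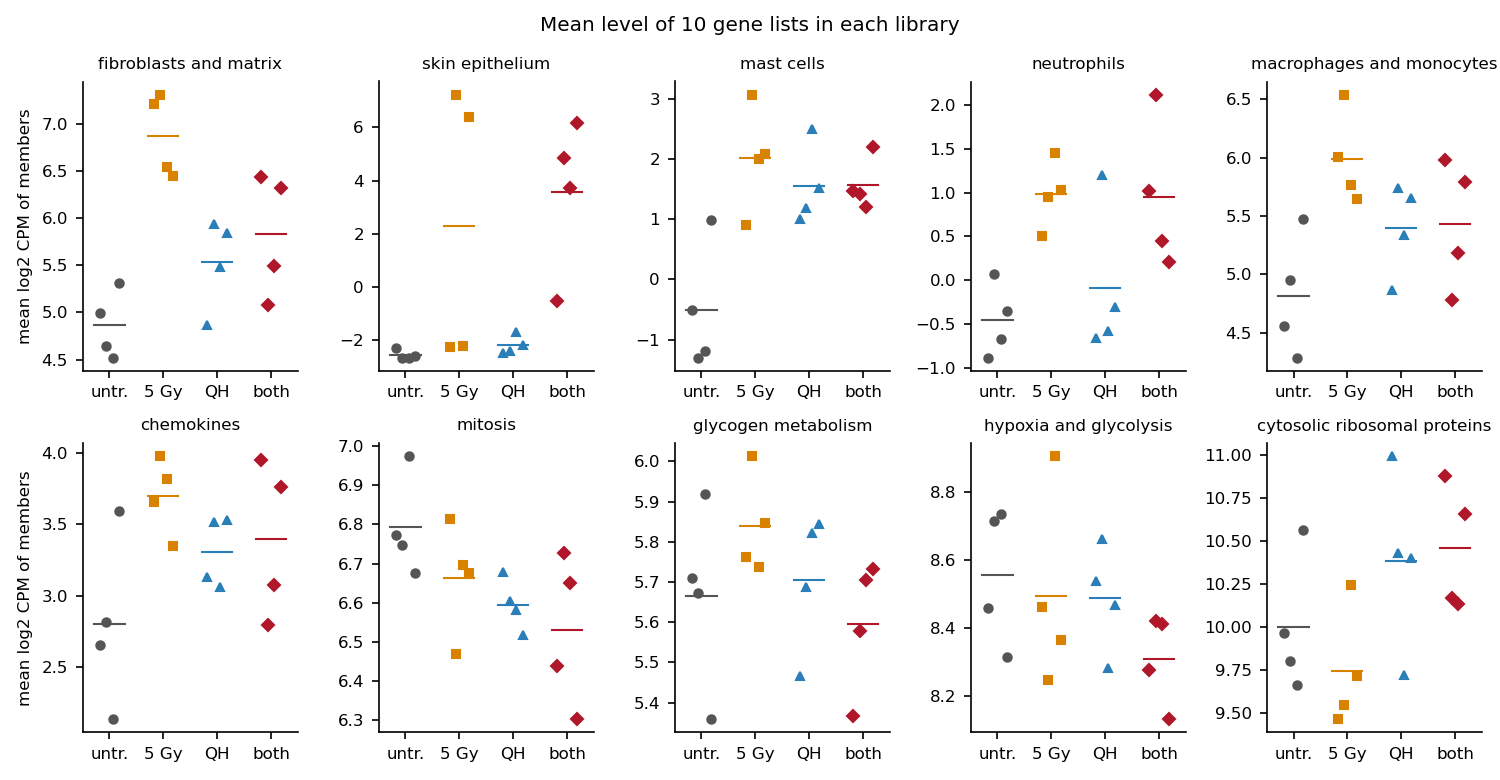
Mean log2 CPM of the tested members of 10 gene lists in all 16 libraries by group (untr., untreated; QH, QH-II-066; both, 5 Gy with QH-II-066); points are libraries and short lines are means of 4. The combined and untreated libraries are apart for skin epithelium, mast cells and neutrophils and overlap in the other lists drawn, as for ribosomal proteins, at 10.13 to 10.88 against 9.66 to 10.57.

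**Figure D5:**
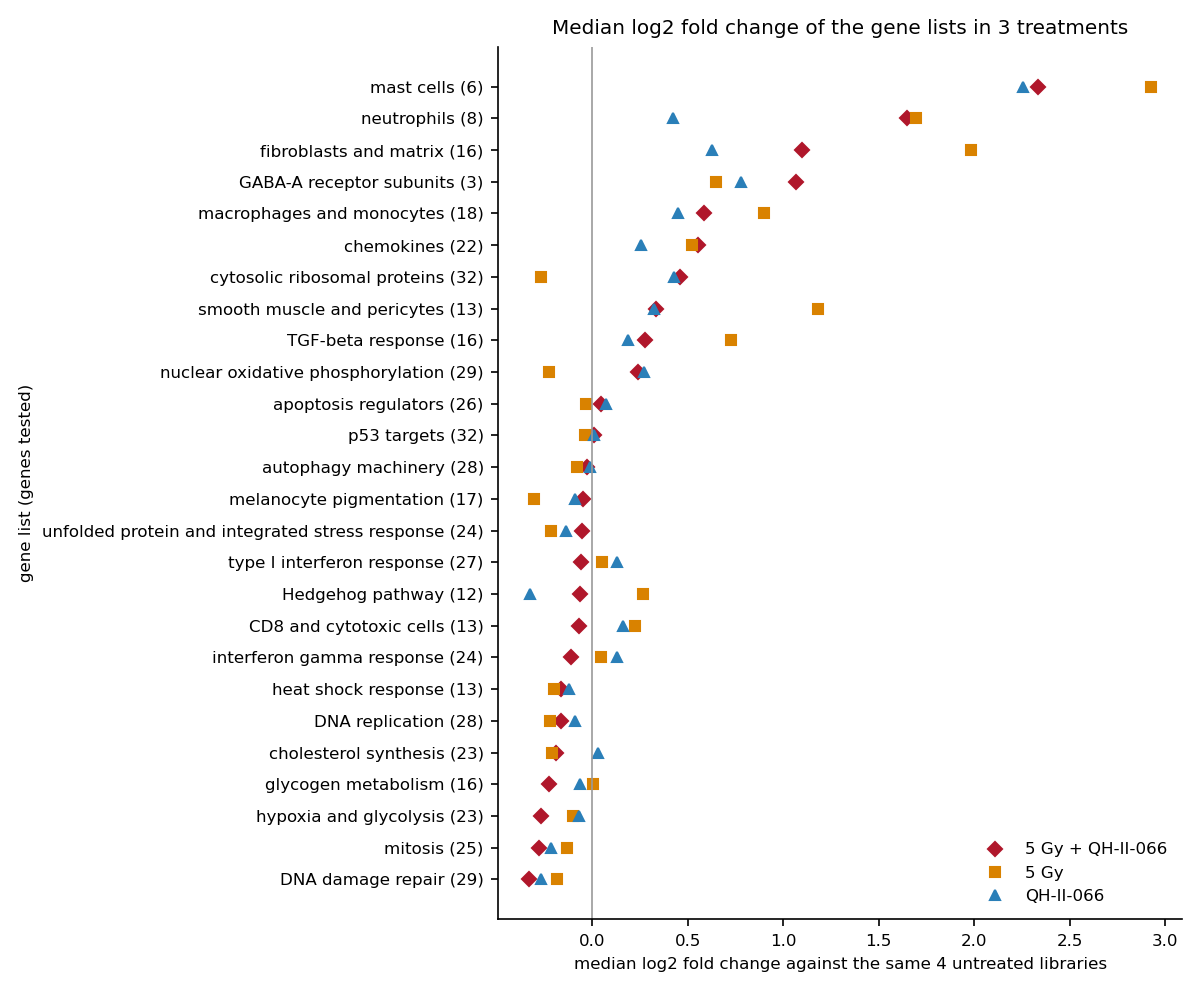
Median log2 fold change of the gene lists described (skin epithelium is not drawn) in tumours given 5 Gy with QH-II-066, 5 Gy alone or QH-II-066 alone, each against the same 4 untreated libraries, with the number of genes tested in parentheses. Fibroblast and matrix genes are at 1.10, 1.98 and 0.63, and ribosomal proteins at 0.46, -0.27 and 0.43.

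The combined tumours were also set against those given either treatment alone. Against 5 Gy, edgeR called 0 higher (0%) and 0 lower (0%) (smallest adjusted p = 0.209), with 1864 higher (11.6%) and 1272 lower (7.9%) at unadjusted p under 0.05. DESeq2 called 75 higher (0.466%) and 48 lower (0.298%); the calls by limma-voom were 20 higher (0.124%) and 64 lower (0.397%). Against QH-II-066, edgeR called 0 higher (0%) and 0 lower (0%), with 446 higher (2.77%) and 142 lower (0.882%) at unadjusted p under 0.05. DESeq2 called 49 higher (0.317%) and 1 lower (0.00647%); the calls by limma-voom were 0 higher (0%) and 0 lower (0%). The interaction of radiation and drug gave 0 genes (0%) at an adjusted p under 0.05 by edgeR (smallest 0.445) and 1121 genes (6.96%) at an unadjusted p under 0.05.

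Gpr183, a receptor for oxysterols that guides immune cells, stood at 0.352, 0.235, 0.239 and 0.149 CPM in the combined libraries, at 0.890, 1.85, 1.35 and 0.983 CPM after 5 Gy and at 0.301, 0.423, 0.448 and 0.422 CPM in the untreated ones. The combined libraries lay wholly below those given 5 Gy alone (edgeR adjusted p = 0.209), and overlapped with the untreated ones (-0.62 ± 0.38). These levels are near the floor: in combined library 4, 3 counts are 0.447 CPM, above its value of 0.149. After 5 Gy alone Gbe1 stood at 98.4, 85.1, 97.9 and 74.4 CPM and Sufu at 30.4, 27.5, 22.5 and 24.5 CPM, against 46.4 to 62.4 and 14.9 to 19.8 CPM in the combined libraries. For these 2 genes the edgeR adjusted p against 5 Gy was 0.209 and 0.209.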

How the data were processed

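Tumour RNA, enriched by transcriptome capture, had been sequenced as 16 libraries on an Illumina HiSeq2500, per the labels' protocols. The deposited values are raw fragment counts per gene, made by the authors with STAR 2.4.1a on mm10 per the submitters' processing notes and with featureCounts 1.6.0 per the file headers, in paired mode and with no strand option, so overlapping and antisense genes cannot be told apart. Of 46078 genes, 45143 had a symbol and 16101 passed edgeR's filterByExpr.

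All 16 libraries entered 1 edgeR 4.0.16 quasi-likelihood model of 4 group means (R 4.3.3, TMM scaling, two-sided tests, Benjamini-Hochberg adjustment over all tested genes, threshold 0.05). CPM values and the level of 3 counts use TMM-scaled library sizes; log2 CPM used a prior count of 2. SE is the log2 fold change divided by the square root of its F statistic. A list's score is the mean log2 CPM of its tested members. The length slope used genes with a mean log2 CPM above 3. Named genes were the 10 of smallest p in each direction whose mean log2 CPM was 1 or more (edgeR called none of them, DESeq2 most), up to 4 members of smallest p from each list described, and 17 fixed genes, 16 of them tested (1 more is not reported here); Krt5, Krt6a, Kit, Gli2 and Kif7 were named after their values were seen. Alternatives were DESeq2 1.42.0, limma 3.58.1 (voom with sample weights), other scaling and filters, thinning to the shallowest library, covariates, the compared groups alone, a replicate block and leaving out libraries. The model code was tested on simulated data. The groups compared, genes and lists were chosen with earlier results of these data known.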

Additional observations from a re-analysis of the deposited data

Results flagged for a closer look

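A gap test on the highest and lowest of 4 libraries (Dixon's ratio above its 95% critical value) marked 11 of 316 groups of values (3.48%), where chance marks about 1 in 20. In log2 CPM, single libraries stood apart for Mmp9 in the combined group (1.83, library 3, lowest), Eomes in the untreated group (1.61, library 4, highest), Xpc in the untreated group (4.93, library 4, lowest) and Xbp1 in the combined group (6.66, library 4, lowest). Hspa5 was lowest in library 4 of both groups, at 10.5 in the untreated and 9.88 in the combined one. Gpr183 was lowest in untreated library 1 (-1.43). The chromosome 19 offset was highest in combined library 4 (-0.0208). Among list scores, skin epithelium was highest in untreated library 1 (-2.30), the TGF-beta response highest in untreated library 2 (3.59) and DNA replication lowest in untreated library 2 (6.47).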

How the results depend on the processing

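edgeR called 0 genes in each of the 3 comparisons under every edgeR setting run. DESeq2 called 208 genes against untreated tumours, 35 of them in the gene lists, 50 compared with QH-II-066 and 123 compared with 5 Gy, where limma-voom called 84. The count of genes lower at unadjusted p under 0.05 (1417) was 478 with the compared groups alone, 860 with thinned libraries, 793 with the skin score, 607 with the length slope and 803 with the chromosome 19 offset as a covariate, the last chosen after seeing the data. Leaving out 1 library gave 639 to 2348 genes higher and 277 to 2796 lower. With the replicate block edgeR called 0 genes, and 1194 were higher and 1556 lower at unadjusted p under 0.05. The replicate numbers were not taken as pairs: deviations of same-numbered libraries correlated at -0.0516 to 0.309 over 4 pairs, 3 of them above 0.1, and those of different numbers at -0.498 to 0.376 over 12, and not every library correlated best with its own number. The log2 fold change changed sign for Cnn1 with limma-voom (-0.20). With the skin score as a covariate it did so for Des (-0.50), Perp (-0.68) and Cdkn1a (0.025), and with the length slope for Ccng1 (0.082), Mlana (-0.051) and Gabarap (-0.076). Without the libraries with skin transcripts it did so for Cd8a (0.45), Gabrb1 (0.30) and Pmel (-0.045). Cd8a was at 0.0088 with thinned libraries, and leaving out 1 library gave -0.31 to 0.13 for Cd8a and -0.29 to 0.0030 for Ccng1. The sign of Ccng1 changed without combined library 1 (0.0030). The cause was not tested. Of the gene values under alternatives, 2761 kept their direction and side of the threshold, 32 passed it under DESeq2 and 16 changed sign; of the list medians 541 kept within the tolerance and 26 moved. Leaving out 1 library moved some list medians by over 1.5 times, over ranges of 0.18 to 0.50 for smooth muscle and pericytes, 0.10 to 0.48 for TGF-beta response, 0.34 to 0.92 for macrophages and monocytes, 0.29 to 0.95 for chemokines, -0.25 to 0.14 for interferon gamma response, -0.24 to -0.071 for DNA replication, -0.20 to -0.066 for heat shock response, -0.32 to -0.097 for glycogen metabolism, -0.24 to -0.092 for cholesterol synthesis, 0.26 to 0.70 for cytosolic ribosomal proteins and 0.13 to 0.39 for nuclear oxidative phosphorylation. In combined library 4, 3 counts are 0.447 CPM, the most that a count of 0 allows there (counting error only).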

Other observations

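Chromosome 19 held 4 of the 10 named genes with lower levels (Sufu, Grk5, Nhlrc2 and Pdcd11), which was noticed after their values were seen. Of its 550 tested genes 94 (17.1%) were lower at unadjusted p under 0.05 by edgeR, against 8.8% of all tested genes. The other chromosomes ran from 5.95% (chromosome 13) to 13.9% (chromosome 16), with 12.6% on chromosome 12. Chromosome 19, with 3.42% of all tested genes, held 23 of the 128 genes lower at unadjusted p under 0.01. Its offset from the other chromosomes, a median of log2 differences from the untreated mean after removal of the length slope, was -0.129, -0.139, -0.130 and -0.0208 in combined libraries 1 to 4. It was 0.145, -0.0925, -0.00933 and -0.0212 in the untreated libraries, so the groups overlapped. The lowest of all 16 libraries was library 2 of QH-II-066 alone, at -0.174. The mean over the combined libraries was -0.105 for chromosome 19 and -0.0948 for chromosome 12. With the chromosome 19 offset as a covariate, added after seeing the data, Sufu was at -0.55 and Grk5 at -0.52 on the log2 scale. Both are among the 298 genes of this chromosome from which the offset was taken.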
